A study of Mus musculus with 23 samples.

Results

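A set of 9 G protein-coupled receptors, through which astrocytes sense neurotransmitters and neuromodulators, was followed in RNA of cortical astrocytes: the metabotropic glutamate receptors Grm3 and Grm5, the purine receptors P2ry1, Adora1 and Adora2b, the adrenergic receptors Adra1a, Adra2a and Adrb1, and the endothelin receptor Ednrb. They were chosen by symbol, and all 9 were found among the 24411 genes of the table. The receptors were measured by RNA sequencing of 23 libraries in 4 groups of mice labelled male, at postnatal day 70. All were homozygous for a floxed Aldh7a1 allele (Aldh7a1-Flox/Flox) with loxP sites around exons 4 and 5. ConAstro mice (n = 4) were littermates without Cre on the control diet, and cKOAstro mice (n = 7) carried 1 Slc1a3-CreER allele on the same diet. The SFN-fed ConAstro group (n = 5) and its counterpart SFN-fed cKOAstro (n = 7) had the same genotypes, and from postnatal day 21 their food held sulforaphane (SFN), a compound known to activate NRF2. Every group, the Cre-negative controls included, received 4-hydroxytamoxifen at postnatal days 3 to 4.

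Aldh7a1 encodes an aldehyde dehydrogenase of lysine breakdown. The Cre sits in the gene of the glutamate transporter Slc1a3 (GLAST), which astrocytes and radial glia express, so carriers have 1 altered Slc1a3 allele. Cells were taken from dissociated cerebral cortex with magnetic beads against the astrocyte surface antigen ACSA-2, whose protein is encoded by Atp1b2. The comparisons ask whether loss of Aldh7a1 in astrocytes, the diet, or the combination of both went along with a different level of these receptors.

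A receptor of this class sits in the plasma membrane and passes a signal to a heterotrimeric G protein. Gq-coupled receptors (Grm5, P2ry1, Adra1a) drive phospholipase C and calcium release from stores, Gs-coupled receptors (Adora2b, Adrb1) raise cyclic AMP, and Gi/o-coupled receptors (Grm3, Adora1, Adra2a) lower it, while Ednrb couples to several G proteins. In the cortex, calcium signals of astrocytes follow noradrenaline through Adra1a, glutamate through metabotropic receptors, ATP and its breakdown product adenosine through P2ry1 and the adenosine receptors, and endothelins through Ednrb.

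Libraries were first set against their labels. Aldh7a1 stood at 207 to 222 CPM (counts scaled to library size) in ConAstro and at 45.6 to 77.7 CPM in cKOAstro, and 2 libraries of the SFN-fed groups went against their label. The library labelled SFN-fed ConAstro replicate 1 had 55.2 CPM of Aldh7a1 and 2084 CPM of Slc1a3, within the ranges of the Cre carriers. The library labelled SFN-fed cKOAstro replicate 2 had 221 CPM of Aldh7a1 and 4409.9 CPM of Slc1a3, within the ranges of ConAstro. For receptors of the followed set that are named in the SFN-fed comparisons, values are given with and without these libraries. Differences of other genes and medians of gene lists in those comparisons are given with these libraries included only. The library cKOAstro replicate 2 is labelled male but had 1536 CPM of Xist, the RNA of the inactive X chromosome. It had 0.0077 CPM of Ddx3y, a gene of the Y chromosome, beside 83.7 to 115 CPM in the other libraries. These are levels of a female. Library names fall into 2 series, names that begin with Astro and names that begin with a number. Astro-named libraries numbered 2 of 7 in cKOAstro, 1 of 5 in SFN-fed ConAstro and 3 of 7 in SFN-fed cKOAstro, and there were none in ConAstro. What the names stand for is not given in the labels. Total counts lay between 46890715 and 391701247 per library, and the receptor with the fewest reads, P2ry1, still had 179 to 1824 counts.

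Markers of the sorted cell type were present in every library, with 10 astrocyte markers summing to 8791 to 13195 CPM and Atp1b2 at 1899.7 to 3186 CPM. The 7 oligodendrocyte markers summed to 21354 to 57130 CPM, more than the astrocyte markers. Neuronal markers (9 genes) summed to 109 to 781 CPM and microglial markers (7 genes) to 267 to 2811 CPM. These are mixed samples in which fewer cells of a type and less RNA per cell cannot be told apart.

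Grm3 was the most abundant of the 9 receptors, followed by Ednrb. Levels are given per kilobase of exon (CPM per kb), with all annotated exons of a gene as its length. Grm3 averaged 172 ± 28.7 (SD, n = 23 libraries) and Ednrb 83.4 ± 13.8. Adora1 followed at 26.7 ± 4.21 and Adora2b at 22.8 ± 2.76. The adrenergic receptors came next, with Adrb1 at 5.96 ± 1.05, Adra2a at 3.88 ± 0.64 and Adra1a at 3.50 ± 0.74. Grm5 at 1.18 ± 0.33 and P2ry1 at 0.94 ± 0.23 were lowest. Grm3 made up 53.5% of the summed level of the 9 receptors, and the ranges of Grm3 and Ednrb did not overlap (115.9 to 228 against 56.1 to 103 CPM per kb).

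The order had 4 steps that held in 23 of 23 libraries, from Grm3 to Ednrb (2.06-fold between means), from Ednrb to Adora1 (3.13-fold), from Adora2b to Adrb1 (3.82-fold) and from Adra1a to Grm5 (2.97-fold). The other neighbours overlapped. Adora1 was above Adora2b in 17 libraries, Adrb1 above Adra2a in 22, Adra2a above Adra1a in 13 and Grm5 above P2ry1 in 17. In each group the order of the means was the same, except in SFN-fed ConAstro, where Adra1a ranked 6 and Adra2a 7. Parts of this order depend on the length used, and which isoforms were present was not measured. In CPM without the length, Adra1a averaged 30.5 over the 23 libraries, above Adrb1 at 20.2 and Adra2a at 18.8. Adora1 at 126 to 206 CPM then lay above Adora2b at 34.4 to 51.6 CPM.

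**Figure D1:**
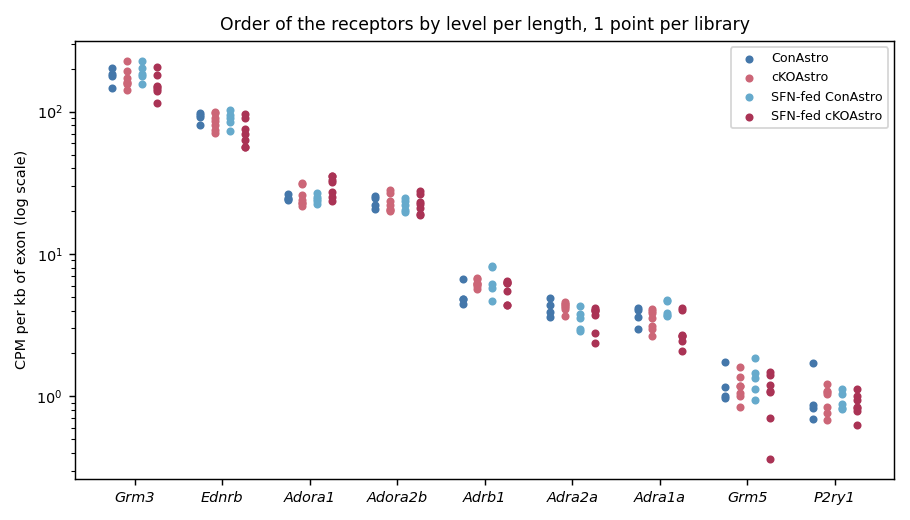
Level of each receptor per kilobase of exon (CPM per kb, log axis), with 1 point for each of the 23 libraries and 4 colours for the groups. Grm3 and Ednrb lie above all other receptors in every library, and Grm5 and P2ry1 lie lowest, at group means near 1 CPM per kb.

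Positions are from GENCODE M21 on GRCm38 (mm10). The Gi/o-coupled receptors are Grm3 on chromosome 5 from 9485541 to 9725170 on the minus strand, Adora1 on chromosome 1 from 134199223 to 134235431 on the minus strand, and Adra2a on chromosome 19 from 54044151 to 54048982 on the plus strand. The Gq-coupled receptors are Grm5 on chromosome 7 from 87584168 to 88134907 (plus), P2ry1 on chromosome 3 from 61002795 to 61008982 (plus) and Adra1a on chromosome 14 from 66635251 to 66771168 (plus). The Gs-coupled receptors are Adora2b on chromosome 11 from 62248984 to 62266453 (plus) and Adrb1 on chromosome 19 from 56722199 to 56733113 (plus), and Ednrb lies on chromosome 14 from 103814625 to 103844402 (minus). Exons of Adora1 overlap 1162 bases of Mybph on the other strand, and those of P2ry1 overlap 992 bases of Gm37035. Whether reads were counted by strand is not stated, so how reads from the overlapping bases were counted is not known. Mybph itself had 0.08 to 0.53 CPM.

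Promoter sequences of RefSeq (GRCm38.p6) held 7 of the 9 receptors, 8 starts in all. The 250 bases before the start are shown for the pair of receptors with the highest level and for Adora1, whose differences had the other sign in several comparisons. Capitals mark the GC box GGGCGG, a motif bound by SP1-family factors, on either strand. The stretches are Grm3 at chr5:9725353-9725602, Ednrb at chr14:103843702-103843951 and the upstream start of Adora1 at chr1:134235458-134235707, each on the minus strand and written 5′ to 3′.
Grm3: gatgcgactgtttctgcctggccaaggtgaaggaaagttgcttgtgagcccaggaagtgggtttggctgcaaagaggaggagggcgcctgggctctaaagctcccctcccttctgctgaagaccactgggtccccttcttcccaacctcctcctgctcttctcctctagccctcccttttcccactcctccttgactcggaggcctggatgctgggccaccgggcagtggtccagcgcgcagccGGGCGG
Ednrb: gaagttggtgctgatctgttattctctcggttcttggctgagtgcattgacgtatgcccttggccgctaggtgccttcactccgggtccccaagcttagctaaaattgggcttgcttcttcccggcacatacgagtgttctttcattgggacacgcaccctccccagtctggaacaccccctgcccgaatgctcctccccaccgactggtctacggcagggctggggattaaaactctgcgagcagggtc
Adora1: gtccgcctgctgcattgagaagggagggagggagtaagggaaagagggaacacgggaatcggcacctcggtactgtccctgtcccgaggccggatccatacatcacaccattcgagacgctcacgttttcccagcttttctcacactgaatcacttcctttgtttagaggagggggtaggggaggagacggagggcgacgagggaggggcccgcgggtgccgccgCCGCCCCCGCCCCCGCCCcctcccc

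Adora1 has 3 GC boxes, at 25, 19 and 13 bases before the start, Grm3 has 1, and Ednrb has none in this window. Of the 8 receptor starts, 6 held a GC box, against 32.7% of 32851 promoters of the same length. The core of the antioxidant response element, through which NRF2 acts (TGACNNNGC, both strands), was in 0 of 8 receptor starts and in 10.2% of all promoters. The cyclic AMP response element (TGACGTCA) was in 0 of 8 and in 1.55% of all. The G and C content was 62.4% for Grm3, 56.8% for Ednrb and 64.4% for Adora1, beside a median of 52.4% over all promoters. Over the 8 receptor starts it ran from 56.8% to 74.0%. The GC box holds only G and C, and its share was not set against promoters of like content. The windows of Adra2a, P2ry1 and the other Adora1 start lay within annotated exons over all 250 bases. Grm5 and Adra1a had no promoter entry.

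On the control diet, cKOAstro was set against ConAstro. No receptor passed the test, and 4 of 17406 genes did (0.023%; edgeR quasi-likelihood test, adjusted p under 0.05), among them Aldh7a1 itself. At an unadjusted p under 0.05, 1 of 9 receptors stood beside 3.74% of all genes. DESeq2 called 0 receptors as well.

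That receptor was Adrb1, the beta-1 receptor that raises cyclic AMP on noradrenaline. It had 16.4, 16.3, 14.97 and 22.7 CPM in the 4 ConAstro libraries and 19.3 to 22.8 CPM with a median of 20.96 in the 7 cKOAstro libraries. ConAstro replicate 4 lay inside the cKOAstro range, and the 3 other ConAstro libraries lay below it. The difference was +0.25 ± 0.10 on the log2 scale (SE; edgeR adjusted p = 0.981). Without ConAstro replicate 4 it was +0.41 (adjusted p = 0.501), and without ConAstro replicate 3 it was +0.18.

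Differences of the 8 remaining receptors lay between -0.11 and 0.05. Grm3 averaged 543 ± 69.96 CPM in ConAstro (SD, n = 4) and 529 ± 87.8 CPM in cKOAstro (n = 7), a log2 difference of -0.04 with a 95% interval from -0.32 to 0.23. Ednrb averaged 391 ± 32.2 and 365 ± 46.7 CPM, a difference of -0.10 (interval -0.32 to 0.11). For P2ry1 the interval was widest, from -0.63 to 0.43, around means of 4.39 ± 1.958 and 4.105 ± 0.84 CPM. Its 4 ConAstro libraries had 3.75, 3.54, 7.29 and 2.99 CPM, so that ConAstro replicate 3 stood apart from the others. The same library had the highest sum of ependymal markers of the 23 libraries, 599 CPM, and its part in the P2ry1 value was not tested.

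**Figure D2:**
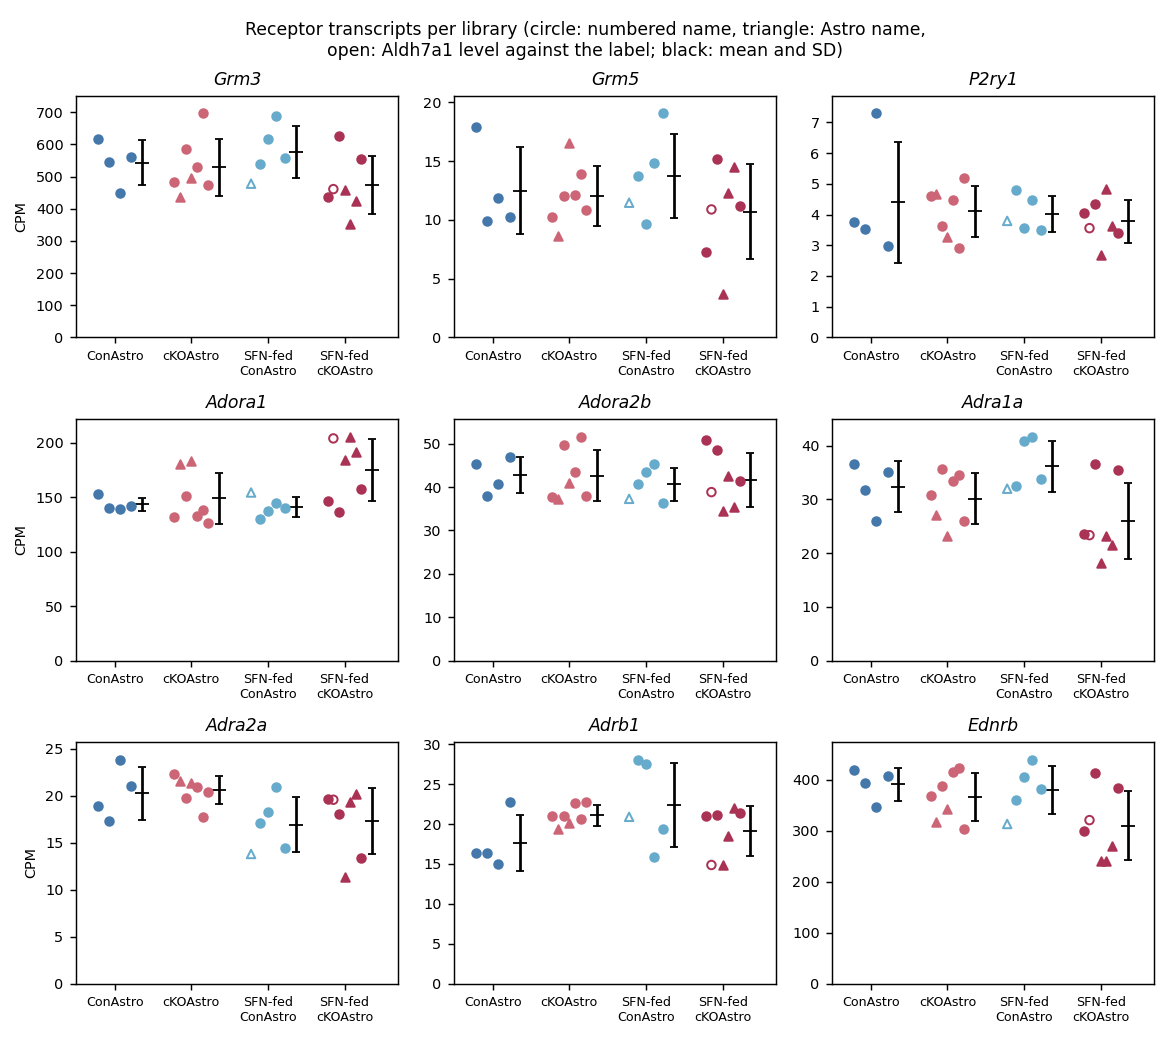
CPM of each receptor in every library by group, with 1 point per library and a bar for the group mean, and with the libraries that went against their label marked. Adora1 spreads from 126 to 206 CPM with its highest points in the groups labelled as Cre carriers, and the ranges of the 4 groups overlap for each receptor.

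Under the SFN diet, SFN-fed cKOAstro was set against SFN-fed ConAstro. No receptor passed the adjusted test, nor did any of 16672 genes (0%), and DESeq2 called 0 receptors. At an unadjusted p under 0.05, Adora1 and Adra1a were 2 of 9, beside 20.3% of all genes.

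Adora1, the Gi/o-coupled adenosine receptor that quiets transmission, had 154, 129.9, 137, 144 and 140.2 CPM in SFN-fed ConAstro replicates 1 to 5. The 7 SFN-fed cKOAstro libraries had 136 to 206 CPM with a median of 184. Replicates 2, 4, 5 and 6 lay at 184 CPM or above, and the 3 others at 136 to 157 CPM. The difference was +0.30 ± 0.11 (edgeR adjusted p = 0.195). Without the 2 libraries that went against their label it was +0.30 (adjusted p = 0.31). Among numbered libraries alone it was +0.22 (adjusted p = 0.437). The first of these fits kept the Astro-named replicates 4, 5 and 6 of SFN-fed cKOAstro. The second kept its replicate 2 at 204 CPM, as did every fit of numbered libraries with this group. The numbered replicates 1, 3 and 7, which went with their label, had 146, 136 and 157 CPM.

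Adra1a, the Gq-coupled noradrenaline receptor, had 32.0, 32.5, 40.8, 41.6 and 33.8 CPM in SFN-fed ConAstro and 18.2 to 36.5 CPM with a median of 23.3 in SFN-fed cKOAstro. Replicates 3 and 7 of SFN-fed cKOAstro, at 36.5 and 35.5 CPM, lay within the SFN-fed ConAstro range, and the 5 others lay below it. The difference was -0.48 ± 0.17 (edgeR adjusted p = 0.195). It was -0.49 (adjusted p = 0.312) without the libraries against their label and -0.33 (adjusted p = 0.431) among numbered libraries.

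Grm3 and Ednrb had differences of -0.28 ± 0.14 (adjusted p = 0.265) and -0.30 ± 0.15 (adjusted p = 0.276). Grm3 stood at 478, 539.6, 615, 689 and 559 CPM in SFN-fed ConAstro and at 353 to 626 CPM (median 458) in SFN-fed cKOAstro. Ednrb stood at 313, 360.01, 404, 439 and 382 CPM and at 239 to 413 CPM (median 299). For both genes the groups overlapped, and SFN-fed cKOAstro replicates 3 and 7 lay within the SFN-fed ConAstro range. Without the libraries against their label the differences were -0.34 for Grm3 and -0.36 for Ednrb (adjusted p = 0.346 and 0.344), and among numbered libraries they were -0.21 and -0.17. Grm5, Adrb1 and P2ry1 had differences of -0.36, -0.23 and -0.09, and Adora2b and Adra2a of 0.04 and 0.03, each with an interval that held 0. Without the libraries against their label these were -0.42, -0.19 and -0.09, and 0.03 and -0.06.

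Markers of other cells differed in the same comparison, with no adjusted p under 0.05. Endothelial markers were lower in 6 of 6 genes (median log2 difference -0.76), mural markers in 6 of 6 (-0.45), fibroblast markers in 5 of 5 (-0.75) and microglial markers in 7 of 7 (-0.53). Oligodendrocyte markers were higher in 7 of 7 (median 0.31), and astrocyte markers higher in 5 and lower in 5 of 10 (median -0.01). Summed mural markers ran from 1156 to 1822 CPM in SFN-fed ConAstro and from 672 to 1587 CPM in SFN-fed cKOAstro, and summed microglial markers from 765 to 2403 CPM and from 267 to 2811 CPM. The part of these cells in the receptor differences was not tested.

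The diet was compared within each genotype. Of SFN-fed ConAstro with ConAstro, 0 of 9 receptors passed the adjusted test (0 of 16509 genes, 0%) and 0 of 9 had an unadjusted p under 0.05, beside 6.54% of all genes. Adrb1 differed by +0.35 ± 0.19 (edgeR adjusted p = 0.791), with 20.9, 28.0, 27.5, 15.9 and 19.4 CPM in SFN-fed ConAstro. Replicates 2 and 3 of that group had the highest Adrb1 of all libraries and replicate 4 lay among the lower ones. Adra2a, an inhibitory noradrenaline receptor, differed by -0.26 ± 0.14 (adjusted p = 0.801), from 20.3 ± 2.81 CPM in ConAstro (n = 4) to 16.9 ± 2.92 CPM (n = 5). Without replicate 1 of SFN-fed ConAstro, which went against its label, Adrb1 differed by +0.37 and Adra2a by -0.20.

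In SFN-fed cKOAstro against cKOAstro, 0 of 9 receptors passed at either level, beside 10.9% of 16903 genes with an unadjusted p under 0.05 and 0% with an adjusted one. On SFN, 8 receptors had a lower mean and Adora1 a higher one, at 149 ± 23.6 CPM in cKOAstro and 175 ± 28.2 CPM in SFN-fed cKOAstro (n = 7 each; +0.24 ± 0.12, adjusted p = 0.47). Adra2a differed by -0.23 ± 0.12 (adjusted p = 0.481) and Ednrb by -0.23 ± 0.13 (adjusted p = 0.503). Without the library against its label, Adora1 was +0.20, Adra2a -0.27 and Ednrb -0.24. Among numbered libraries Ednrb was -0.11, and without SFN-fed cKOAstro replicate 4 Adra2a was -0.15. Median differences of the 9 receptors were -0.15 here and -0.02 in the control genotype, beside medians near 0 (0.01 and -0.01) for all genes.

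SFN-fed cKOAstro was also set against ConAstro, the group with neither deletion nor SFN. Here 0 of 9 receptors and 0% of 16753 genes passed the adjusted test, and 1 of 9 receptors beside 8.67% of all genes had an unadjusted p under 0.05. Adora1 had 152.5, 140.4, 139 and 142 CPM in the ConAstro libraries, a range narrower than that of any other group, and was +0.28 ± 0.11 higher in SFN-fed cKOAstro on average (edgeR adjusted p = 0.557). Ednrb differed by -0.34 ± 0.16 (adjusted p = 0.557) and Adra1a by -0.32 ± 0.19 (adjusted p = 0.583). Without the library against its label these were +0.25 for Adora1, -0.34 for Ednrb and -0.28 for Adra1a. ConAstro held no Astro-named library and SFN-fed cKOAstro held 3 of 7. Among numbered libraries Adora1 was +0.16, Ednrb -0.15 and Adra1a -0.12, and with the name series as a covariate they were +0.16, -0.14 and -0.12. Both of these fits kept SFN-fed cKOAstro replicate 2, which went against its label and had 204 CPM of Adora1. The numbered replicates 1, 3 and 7 of SFN-fed cKOAstro had 146, 136 and 157 CPM. The ConAstro and cKOAstro libraries serve in several of these comparisons, which are therefore not independent of each other.

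Whether the genotype difference depended on the diet was tested as an interaction over the 4 groups. No receptor passed the adjusted test (0% of 17302 genes), and Adrb1 was 1 of 9 with an unadjusted p under 0.05, beside 7.32% of genes. Its genotype difference was +0.25 on the control diet and -0.23 on SFN, an interaction of -0.48 ± 0.20 (edgeR adjusted p = 0.674). For Adora1 the interaction was +0.25 ± 0.16 (adjusted p = 0.707), and for Adra1a it was -0.38 ± 0.23 (adjusted p = 0.707). Without the libraries against their label, the interaction was -0.45 for Adrb1, +0.25 for Adora1 and -0.39 for Adra1a. In these 6 comparisons no receptor passed the adjusted test under any alternative tried.

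**Figure D3:**
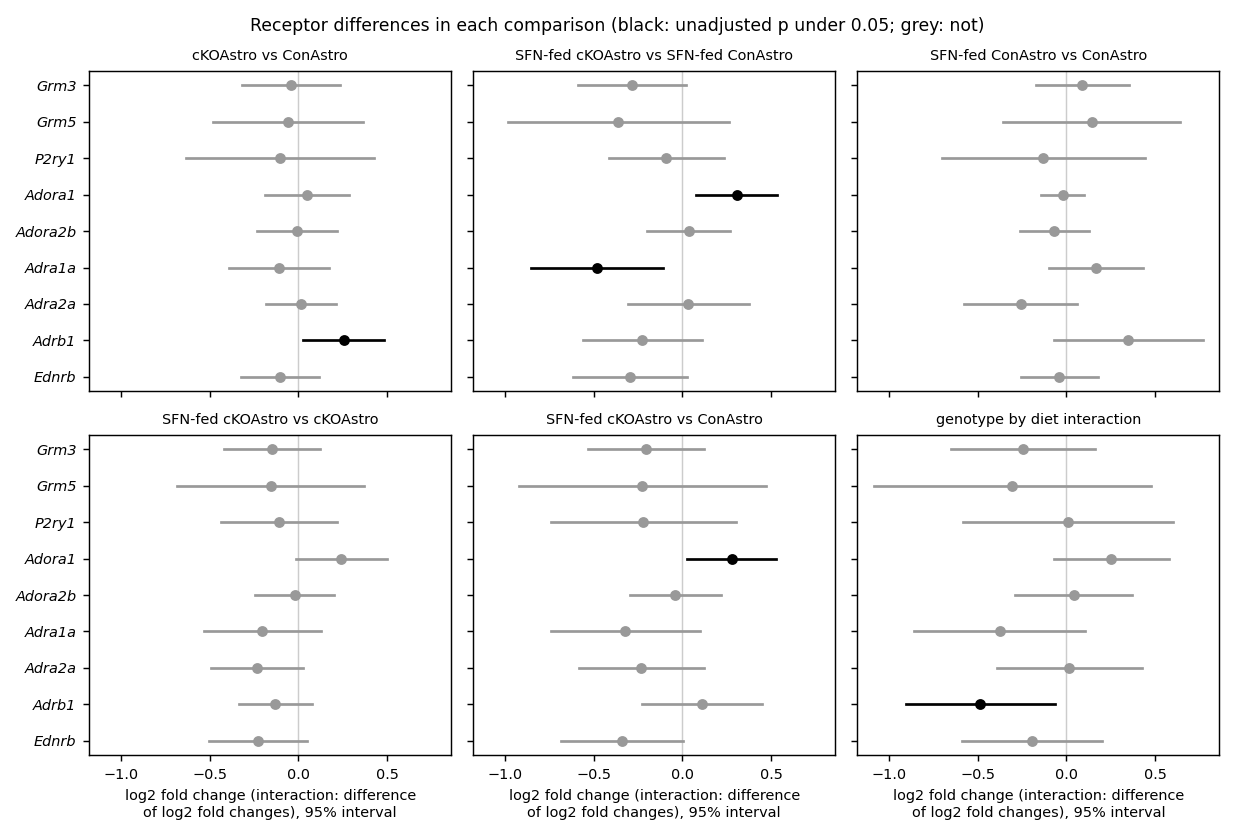
Log2 fold change of each receptor in each comparison, as points with 95% intervals from the edgeR fit. Intervals of Adora1 and Adra1a leave 0 in the SFN-fed genotype comparison, that of Adora1 in SFN-fed cKOAstro against ConAstro, and those of Adrb1 in the control diet genotype comparison and in the interaction, none with an adjusted p under 0.05.

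Genes around the receptors were read from 5 lists of 97 genes. None passed the adjusted edgeR test in the 6 comparisons. Among 21 other receptors of the same families, Ednra, the endothelin receptor of vascular smooth muscle, differed by -0.50 ± 0.20 in SFN-fed cKOAstro against SFN-fed ConAstro (adjusted p = 0.205), by -0.39 ± 0.16 in SFN-fed cKOAstro against cKOAstro (adjusted p = 0.459), and by -0.55 ± 0.25 in the interaction (adjusted p = 0.674). Mural markers, of which vascular smooth muscle is a source, were lower in 6 of 6 genes in each of these comparisons, with medians of -0.45, -0.39 and -0.62. The peptide ligand gene Edn1 differed by +0.76 ± 0.30 in SFN-fed ConAstro against ConAstro (6.86 to 11.6 CPM, adjusted p = 0.762) and by +0.65 ± 0.22 in SFN-fed cKOAstro against cKOAstro (6.17 to 9.64 CPM, adjusted p = 0.459). Endothelial markers were higher in 6 of 6 genes in both, with medians of 0.63 and 0.34. The part of vascular cells in the Ednra and Edn1 values was not tested.

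Genes that make or clear the ligands were tested for 17 of 19. Ece1, which matures endothelin, differed by -0.42 ± 0.15 (adjusted p = 0.195), and Ada, which deaminates adenosine, by +1.02 ± 0.41 (adjusted p = 0.209), both in SFN-fed cKOAstro against SFN-fed ConAstro. Ece2 differed by +0.19 ± 0.07 in cKOAstro against ConAstro (adjusted p = 0.981). Downstream, 17 of 17 genes of the Gq and calcium list and 23 of 23 of the cyclic AMP list were tested. Itpr3, a calcium release channel, differed by -0.53 ± 0.20 (adjusted p = 0.203) and Adcy3, an adenylyl cyclase, by -0.33 ± 0.13 (adjusted p = 0.212) in the SFN-fed genotype comparison. Grk5, a kinase that desensitises receptors, differed by -0.48 ± 0.20 there (adjusted p = 0.219), and Grk3 by -0.23 ± 0.09 in SFN-fed ConAstro against ConAstro (adjusted p = 0.762). List medians in the SFN-fed genotype comparison were -0.29 for the other receptors, -0.12 for Gq signalling, -0.04 for cyclic AMP, -0.06 for desensitisation and -0.16 for ligand supply, beside -0.23 for the 9 receptors and 0.01 for all genes tested.

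A comparison by library name was added after the data were seen. Within the 14 libraries labelled as Cre carriers, 5 Astro-named libraries were set against 9 numbered ones, with the diet as a term. This comparison called 5.96% of 17662 genes at an adjusted p under 0.05 and 22.2% at an unadjusted one. Of the 9 receptors, 2 passed the adjusted test, Adora1 and Ednrb.

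Adora1 rose by 0.32 ± 0.09 in Astro-named libraries (edgeR adjusted p = 0.0415), with 180 to 206 CPM in those 5 and 126 to 204 CPM in the 9 numbered ones. Of the numbered libraries, 8 lay at 126 to 157 CPM. The other, at 204 CPM, was SFN-fed cKOAstro replicate 2, which went against its label. Without it the difference was +0.40 (adjusted p = 0.000898). With it left out, the Astro-named and the numbered Adora1 values did not overlap, and that fit called 2167 genes. How many of all genes did not overlap in this split is not given here. The Astro-named library labelled SFN-fed ConAstro, which also went against its label and was outside this fit, had 154 CPM.

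Ednrb fell by 0.38 ± 0.10 (adjusted p = 0.0460), with 239 to 343 CPM in the Astro-named and 299 to 423 CPM in the numbered libraries. Adra1a differed by -0.45 ± 0.13 (adjusted p = 0.0517), from 18.2 to 27.1 CPM against 23.3 to 36.5 CPM, and passed at 0.0181 without SFN-fed cKOAstro replicate 2. Grm3 differed by -0.31 ± 0.11 (adjusted p = 0.117) and Adora2b by -0.24 ± 0.10 (adjusted p = 0.165). Grm5, P2ry1 and Adra2a differed by -0.04, -0.07 and -0.01 and Adrb1 by -0.12. With each of the 14 libraries left out in turn, the number of called genes ran from 0 to 2167. It was 0 without cKOAstro replicate 2, cKOAstro replicate 4, SFN-fed cKOAstro replicate 5 or SFN-fed cKOAstro replicate 6. Of these, cKOAstro replicate 2 is the library with the Xist level of a female. Adora1 kept a difference of 0.31 to 0.40 but was called in 2 of the 14 fits. Ednrb stood at -0.41 to -0.30 in these fits and was called in 3. Over the 5 other settings tried for this comparison, Adora1 was called in 5, Ednrb in 2 and Adra1a in 3.

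Markers of other cells moved along the same split. The 7 microglial markers fell in 7 of 7 genes (median -2.23), with sums of 267 to 481 CPM in the Astro-named and 301 to 2811 CPM in the numbered libraries. The 301 CPM belonged to SFN-fed cKOAstro replicate 2, the numbered library with 204 CPM of Adora1, and the 8 other numbered libraries lay at 838 to 2811 CPM. The Astro-named library labelled SFN-fed ConAstro, with 154 CPM of Adora1, had 2403 CPM. Of the fibroblast markers 3 of 5 passed, and of the oligodendrocyte markers 1 of 7. The latter summed to 25707 to 57130 CPM against 22555 to 34652 CPM. Of the other receptors of the families, 5 of 19 passed, all lower, among them P2ry12 by -2.45, P2ry13 by -2.24, P2ry6 by -2.03 and Adora3 by -2.56, genes that microglia express. The desensitisation gene Rgs10, also high in microglia, fell by 2.00. Rgs20 (-0.51), Plcb2 (-2.31), Adcy7 (-1.39), Adcy8 (-0.67), Entpd1 (-1.13), Slc29a1 (-0.69) and Edn3 (-0.95) passed as well. The part of the cells other than astrocytes in the Adora1 and Ednrb differences was not tested.

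**Figure D4:**
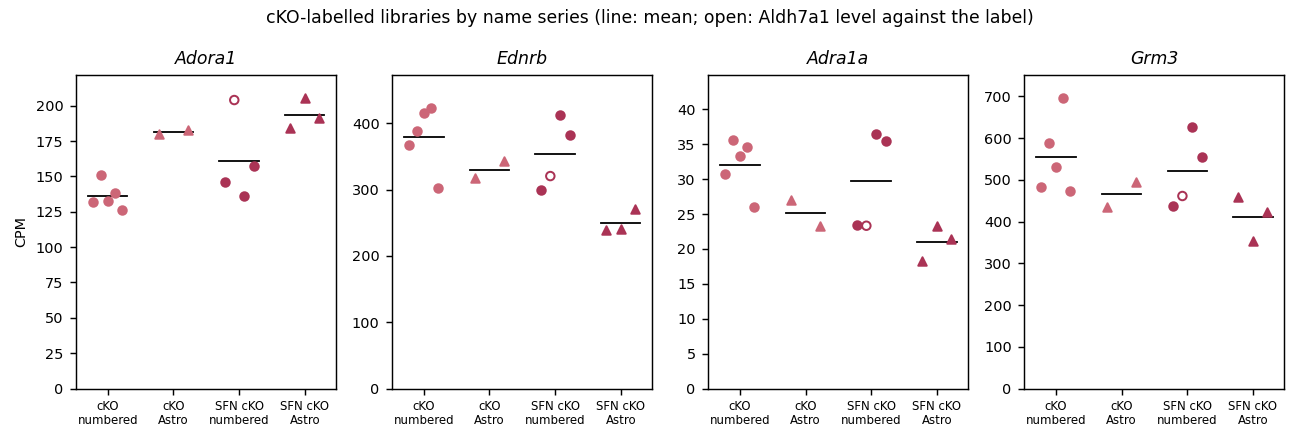
CPM of Adora1, Ednrb, Adra1a and Grm3 in libraries labelled as Cre carriers, with Astro names (5, triangles) and numbered names (9, circles), 1 point per library and a line for the mean. Adora1 is at 180 to 206 CPM in the Astro-named libraries and at 126 to 157 CPM in the numbered ones except for 1 library at 204 CPM, the open circle, whose Aldh7a1 level was that of ConAstro, and Ednrb and Adra1a lie lower in the Astro-named libraries.

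Receptors that moved together across libraries were described after each group's mean was subtracted from log2 CPM, over 23 libraries. These are descriptions without a test, since libraries share a depth, a cell mix and a name series. Grm3, Adra1a and Ednrb formed the tightest set. Pearson's r was 0.87 between Grm3 and Ednrb (Spearman's rho 0.88), 0.89 between Adra1a and Ednrb (rho 0.90) and 0.77 between Grm3 and Adra1a (rho 0.81). Without the 2 libraries farthest from the median, r was 0.83, 0.82 and 0.71, and within the 17 numbered libraries 0.88, 0.92 and 0.88. Without the libraries against their label it was 0.86, 0.91 and 0.77. SFN-fed cKOAstro replicate 3 was highest in this set and lay 0.43, 0.54 and 0.45 above its group mean for Grm3, Adra1a and Ednrb on the log2 scale.

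Adora2b had r of 0.60, 0.64 and 0.61 with these receptors. Adora1 went the other way, with r of -0.44 to -0.49, but within the numbered libraries r was 0.03, -0.10 and 0.01. P2ry1 and Adra2a had r = 0.57. Adrb1 had its largest r in size with Adora1 (-0.44), and Grm5 its largest with Ednrb (0.42), which fell to 0.10 without the 2 farthest libraries.

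Grm5, a receptor that neurons also carry, followed the neuronal markers with r = 0.92 (rho 0.86, 0.85 without the 2 farthest libraries, 0.85 within the numbered libraries). Its lowest value of the 23 libraries, 3.72 CPM, was in SFN-fed cKOAstro replicate 4, which also had the lowest neuronal sum, 109 CPM. P2ry1 followed the ependymal markers with r = 0.73 (0.59 and 0.74 in the same subsets). Adora1 had r = -0.80 with the microglial markers (-0.81 and -0.67), and Adrb1 -0.64 with the oligodendrocyte markers (-0.63 and -0.74). In the same way, Ednrb had r = 0.71 with the mural (0.54 and 0.46), 0.62 with the astrocyte (0.49 and 0.66) and 0.60 with the endothelial markers (0.47 and 0.37). Grm3 had r = 0.68 with the mural (0.67 and 0.66), -0.63 with the ependymal (-0.62 and -0.74) and 0.56 with the astrocyte markers (0.61 and 0.75). Without the libraries against their label, r was 0.93 for Grm5 and neuronal, 0.74 for P2ry1 and ependymal, -0.84 for Adora1 and microglial and -0.65 for Adrb1 and oligodendrocyte markers. In that subset Ednrb and Grm3 had r of 0.71 and 0.65 with the mural markers and 0.59 and 0.55 with the astrocyte markers. For Grm5, P2ry1, Adora1, Adrb1, Ednrb and Grm3, the r of largest size over all marker lists is among those given. These are not the only relations. Over 23 libraries, Adora1 had r = -0.66 with immediate early genes and 0.53 with the oligodendrocyte markers. Adra1a had 0.65 with the mural and -0.61 with the oligodendrocyte markers, and Adora2b 0.59 with the astrocyte and 0.56 with the endothelial markers. How many other genes reach such r is not given here. The part of the cell mix in these values was not tested.

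**Figure D5:**
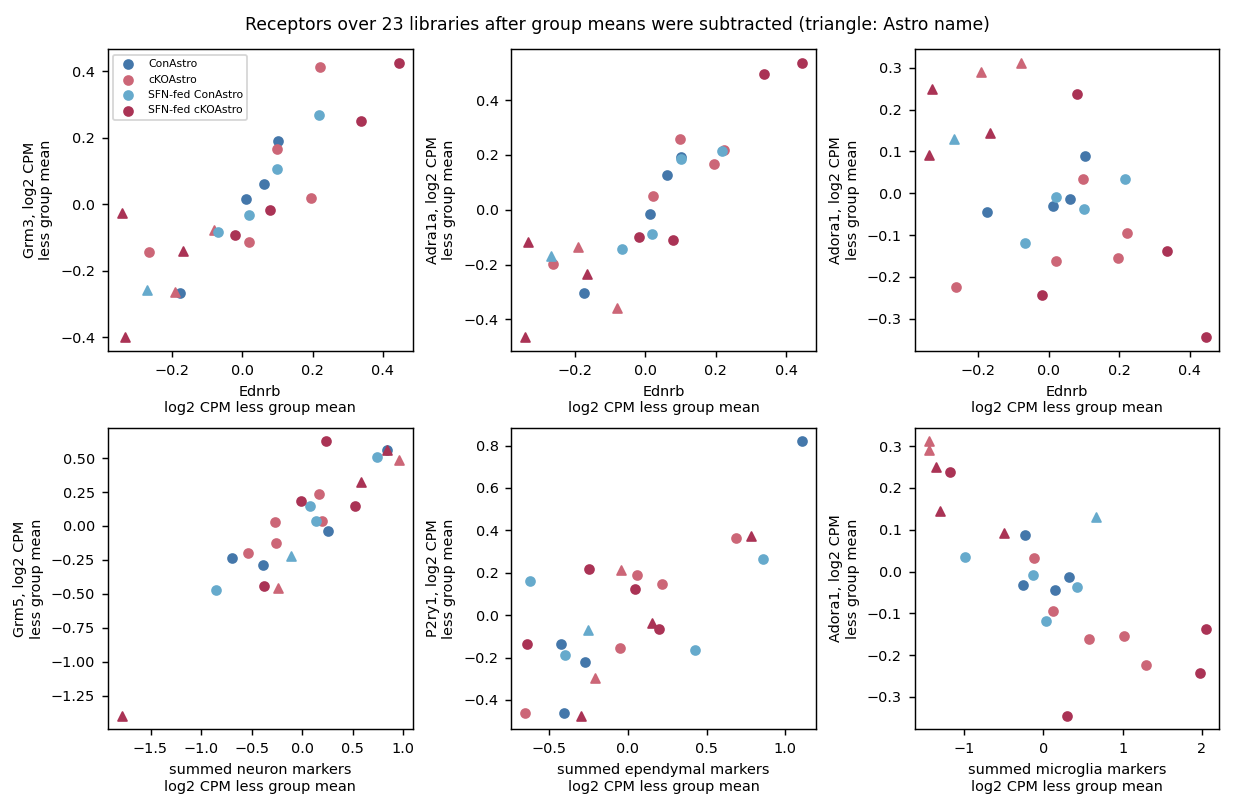
Relations between receptors, and between receptors and summed markers of cell types, across 23 libraries after each group's mean was subtracted (log2 CPM). Grm3, Adra1a and Ednrb rise and fall together, and Grm5 follows the neuronal markers (r = 0.92) while Adora1 falls where microglial markers rise (r = -0.80).

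Genes whose pattern was most like each receptor were ranked by Pearson's r over 23 libraries among 17302 genes. Grm3 was closest to Cdh11 (0.97) and B3galt1 (0.95), Adra1a to Ppargc1a (0.94) and Ptprz1 (0.94), and Ednrb to Adgrl3 (0.94) and Igdcc4 (0.94). Grm5 was closest to Necab1 (0.97) and Sprn (0.95), Adora1 to Ralgds (0.95) and Rcan2 (0.93), P2ry1 to Rgs9 (0.89) and Plscr2 (0.88), and Adora2b to Ankrd29 (0.87) and Pnrc2 (0.86). Adra2a reached 0.83 with Pdlim7 and 0.79 with Avpi1, and Adrb1 0.75 with Arid3a and 0.75 with Cited2. Several named neighbours were less stable across library subsets. Within the numbered libraries Pdlim7 was rank 19 and Avpi1 rank 194 for Adra2a, and Arid3a rank 19 and Cited2 rank 39 for Adrb1. Rcan2 was rank 22 for Adora1 and Sprn rank 12 for Grm5, whereas Cdh11 was rank 2 for Grm3 and Ralgds rank 1 for Adora1.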

How the data were processed

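RNA was sequenced from 23 libraries of MACS-sorted cortical astrocytes (PicoPure RNA, poly(A) selection, paired-end NovaSeq). Raw read counts per gene symbol were deposited by the authors, who named FastQC and STAR with mm10; the aligner version, annotation and strand setting are not given in the sources used here. Every column matched 1 sample, and 0 columns were left over.

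Counts were tested with the edgeR 4.0.16 quasi-likelihood test in R 4.3.3 (limma 3.58.1) after TMM normalization and filterByExpr (minimum count 10, minimum total 15), each pair of groups on its own libraries with the 4 groups together for the interaction. Benjamini-Hochberg adjustment covered all genes tested, with a threshold of 0.05. CPM is TMM-normalised, log2 CPM has a prior count of 2, and level per kb divides CPM by the union of GENCODE M21 exons. The labels give each library as a separate sample without an animal number, so p-values measure the spread between libraries. No pair of libraries of the same group agreed within counting noise (lowest chi-square per degree of freedom 42.4), and pairs across groups were not examined. The scripts were tested on simulated data. Alternatives were DESeq2 1.42.0, RLE scaling, no filter, thinned counts, all 4 groups in 1 fit, a replicate block, the name series as covariate or numbered libraries only, leaving out libraries against their label, and leaving out each library.

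Members and lists were chosen with earlier results of these data known. Named genes were the 9 receptors, Aldh7a1 and Slc1a3, the listed genes past the threshold or with the 2 lowest p of each list (a selection of the latter is printed), and the 2 genes most like each receptor. Of these, 1 listed gene past the threshold is not reported here.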

Additional observations from a re-analysis of the deposited data

Results flagged for a closer look

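By Dixon's test at the 95% level, 3 values of the genes that check the labels stood apart from their group, of 44 sets of a gene and a group tested, where chance marks about 1 in 20. Aldh7a1 had 55.2 CPM in SFN-fed ConAstro replicate 1, beside 176.8 to 224 CPM in the other libraries of that group. Aldh7a1 had 221 CPM in SFN-fed cKOAstro replicate 2, beside 42.8 to 57.8 CPM in the others. Slc1a3 had 4409.9 CPM in the same library, beside 1594 to 2764 CPM. No value of the 9 receptors stood apart in this way.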

How the results depend on the processing

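Of the receptors' differences under settings other than leaving out a library, 489 kept their direction and their side of the threshold, 27 changed sign at 2 decimals, 3 passed the threshold newly and 3 lost it, the last 2 kinds all in the comparison by library name. No change of sign was in a value called by the main test, and the cause was not tested. The number of genes called moved with the tool: DESeq2 called 8 in cKOAstro against ConAstro (4 by edgeR), 250 in SFN-fed cKOAstro against SFN-fed ConAstro, 24 in SFN-fed ConAstro against ConAstro, 15 in SFN-fed cKOAstro against cKOAstro, 8 in SFN-fed cKOAstro against ConAstro, 3 in the interaction (0 by edgeR in these 5) and 2100 in the comparison by library name (1052 by edgeR). With all 4 groups in 1 fit, 0 genes were called in cKOAstro against ConAstro and 3 in SFN-fed cKOAstro against SFN-fed ConAstro. Without the libraries against their label, 2 were called in SFN-fed cKOAstro against SFN-fed ConAstro, 2 in SFN-fed cKOAstro against ConAstro and 2167 in the comparison by name. With counts thinned to the smallest library, 1 was called in the interaction. In the comparison by name, 1 receptor was called with RLE scaling and 1 with no filter, in place of 2.

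In cKOAstro against ConAstro, the numbered libraries alone gave 0.0382 for Grm3, -0.071 for Adora1 and 0.0544 for Adora2b. The name series as a covariate gave 0.0236, -0.0848 and 0.0401 for these and -0.00813 for Adra2a, and leaving out the library with the Xist level of a female gave 0.0122 for Grm5 and 0.0249 for Adora2b. In SFN-fed cKOAstro against SFN-fed ConAstro, Adra2a was -0.0599 without the libraries against their label and -0.00837 among numbered ones. In SFN-fed ConAstro against ConAstro, Ednrb was 0.0176 in each of these settings, which there leave out the same library, and 0.0212 with the covariate. Adora2b was 0.0181 among numbered libraries in SFN-fed cKOAstro against cKOAstro, and 0.0681 there and 0.0737 with the covariate in SFN-fed cKOAstro against ConAstro. In the interaction, Adra2a was -0.0765 without the libraries against their label and -0.00895 among numbered ones, where P2ry1 was -0.0169. In the comparison by name Adra2a was 0.00566 with DESeq2, 0.00556 with RLE, 0.00825 with thinned counts and 0.0221 without the library against its label.

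Of 29 same-numbered pairs of libraries, 8 had a correlation of their deviations over 0.1 (range -0.22 to 0.34). Pairs with unlike numbers were not set beside them, so whether replicate numbers pair the libraries cannot be decided from these values. With the replicate number as a block, 1 gene was called in cKOAstro against ConAstro, P2ry1 was 0.0067 in SFN-fed ConAstro against ConAstro, and the interaction was -0.0321 for P2ry1 and -0.00561 for Adra2a. The block changed no call of a receptor in these 6 comparisons.

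Leaving out 1 library at a time, 764 differences kept direction and side, 56 changed sign, 3 passed newly and 23 lost the threshold. The lowest and highest values are given. In cKOAstro against ConAstro, genes called were 2 (without ConAstro replicate 4) to 4, and differences were Grm3 -0.13 to 0.0202, Grm5 -0.15 to 0.17, P2ry1 -0.24 to 0.25, Adora1 -0.00861 to 0.0854, Adora2b -0.0567 to 0.0462 and Adra2a -0.0455 to 0.0992. In SFN-fed cKOAstro against SFN-fed ConAstro, genes called were 0 to 701 (without SFN-fed cKOAstro replicate 3), Adora2b -0.0213 to 0.0839 and Adra2a -0.0252 to 0.13. In SFN-fed ConAstro against ConAstro, genes called were 0 to 1 (without ConAstro replicate 4), Ednrb -0.10 to 0.0176 and P2ry1 -0.28 to 0.23. In SFN-fed cKOAstro against cKOAstro, the range was Adora2b -0.0685 to 0.0407. In SFN-fed cKOAstro against ConAstro, genes called were 0 to 2, Adora2b -0.0873 to 0.0223, Grm5 -0.32 to 0.0122 and P2ry1 -0.35 to 0.15. For the interaction, ranges were Adora2b -0.0111 to 0.0992, Adra2a -0.0899 to 0.10 and P2ry1 -0.37 to 0.15. In the comparison by name, genes called were 0 to 2167, receptors called 0 to 3, and ranges Adra2a -0.0666 to 0.13, Grm5 -0.22 to 0.19 and P2ry1 -0.15 to 0.0426.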

Other observations

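Other receptors of the same families, 21 in all, were measured in the same libraries. P2ry12, the ADP receptor of microglia, had the highest median level of these per kilobase, 37.6 CPM per kb, and ranged from 12.5 to 189.6 CPM. P2ry13 followed at 10.9 CPM per kb (3.81 to 67.2 CPM). Adora2a stood at 6.17 CPM per kb, Ednra at 5.79 and Adra1b, a second Gq-coupled noradrenaline receptor, at 4.45. By this measure 9 of the 21 lay below P2ry1, the lowest of the receptors described above, and 4 had a median under 1 CPM. Adra2b, P2ry4 and Grm6 had medians of 0.08, 0.02 and 0.02 CPM.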
